A study of Mus musculus with 4 samples.

Results

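The genes described here are the nucleus-encoded subunits of respiratory complexes II to V, measured by ribosome profiling of dorsal root ganglia, the ganglia that hold the cell bodies of sensory neurons. Members were taken by gene symbol, as the genes named Sdha to Sdhd, Uqcr, Cyc1, Cycs, Cox4 to Cox8 and Atp5, and this gave 49 of the 48431 genes in the deposited table, each with 1 row. The rule itself uses symbols and no measured value. By their known roles the members were 4 subunits of complex II, 9 of complex III, 10 common forms of complex IV, 8 tissue or related forms of complex IV, 15 subunits of complex V and 3 others, which were cytochrome c, Atp5s and Atp5sl.

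All 4 libraries came from 1 group, wild-type (WT) female SW mice that received paclitaxel, a microtubule-stabilising cancer drug, by the intraperitoneal route at 4 mg/kg in 4 injections on alternate days. The sources used here gave neither the age of the mice nor the number of animals behind a library, so SDs and tests cover the spread from library to library, which may be technical. Untreated mice and RNA libraries were not analysed here, so that neither drug effects nor translational efficiencies were measured. Libraries held 5731508 to 14633418 assigned reads, and the 5 neuronal markers, led by Tubb3, Uchl1 and Prph, summed to 7693 to 9249 CPM. CPM is a gene's reads per 1000000 assigned reads, and footprint density is CPM per kilobase (kb) of the longest annotated coding sequence, which allows levels of genes to be compared. Replicate 3 stood apart in that the mitochondrial ribosomal RNA gene mt-Rnr2 was listed at 0, against 23520.5 to 61455 CPM in the others. Detected means at least 1 CPM in every library, which held for 47 of the 49 members and for 30.4% of all genes.

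Complex II, succinate dehydrogenase, passes electrons from succinate to ubiquinone and is also an enzyme of the citric acid cycle. Complex III passes them on to the small carrier cytochrome c, complex IV passes them to oxygen, and complex V, the ATP synthase, uses the proton gradient that complexes III and IV help to build. All subunits of complex II are nuclear genes, whereas complexes III to V also hold subunits encoded by mitochondrial DNA and made on mitochondrial ribosomes. Several complex IV subunits exist as a common (liver) form and a form of heart and skeletal muscle or of another tissue, each encoded by its own gene.

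Core subunits were among the genes with the densest footprints. The median density of the 38 core subunits, which are the members of complexes II to V without the tissue and related forms, was 351 ± 47.3 CPM per kb (SD, n = 4 libraries). It lay 4.56 ± 0.14 above the typical gene on the log2(density + 1) scale, where the typical gene is the median of the 14113 protein-coding genes whose mean reached 1 CPM or more, at 14.0 CPM per kb. The 37 genes with complex I (Nduf) symbols, which include Ndufa4, lay 3.70 ± 0.09 above it, and all tested genes with a coding length of at most 500 nt lay 1.68 ± 0.10 above it. From low to high, the medians of complex II, complex III, complex V and the common forms of complex IV were 207 ± 18.2, 249.9 ± 12.8, 333 ± 42.6 and 688 ± 117 CPM per kb. Their median coding lengths differed, from 679.5 nt in complex II to 256.5 nt in the common forms of complex IV, and without division by length the medians in the same order lay 2.83, 2.85, 2.85 and 3.18 above the typical gene on the log2 scale. In a limma test over all 14113 genes, 44 of the 49 members had a density above the typical gene and 1, Cox4i2, had one below it, against 46.1% above and 46.2% below among all genes tested. The largest limma adjusted p among these members was 0.0029, that of Cox6a2. Cox6b2 and Atp5s passed in neither direction, and Cox7b2 and Cox8c were too low to be tested. When CPM was not divided by length, 39 members were called above it: Cox7a1, Cox7a2l and Cox8b lay under the typical gene, and Cox6a2 (0.69, limma adjusted p = 0.17) and Atp5sl (0.02, limma adjusted p = 0.815) were no longer called. All members together took 0.826% to 0.990% of the reads of a library.

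**Figure D1:**
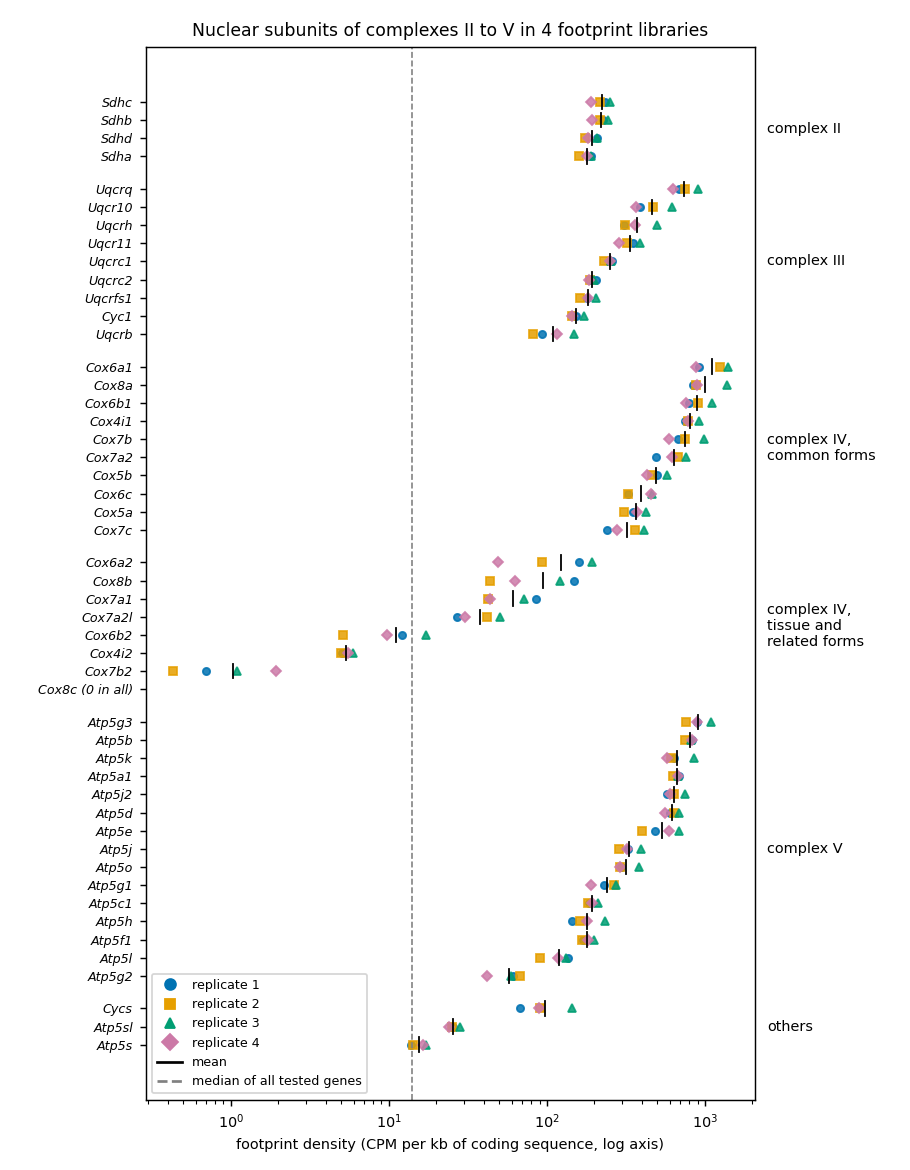
Footprint density in CPM per kb of coding sequence (log axis) of each member, with 1 symbol per library, the mean as a black bar and the median of all tested genes, 14.0 CPM per kb, as a dashed line. The core subunits of complexes II to V all lie to the right of that line, and the tissue forms of complex IV spread from 123.7 CPM per kb for Cox6a2 to no read for Cox8c.

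The 4 complex II genes had similar densities. Sdhc, a membrane anchor, stood at 234, 218, 252 and 191 CPM per kb in replicates 1 to 4, and Sdhb, the iron-sulfur subunit, at 226, 218, 245 and 194 CPM per kb. Sdhd, the other membrane anchor, stood at 209, 176, 208 and 182 CPM per kb. Sdha (ENSMUSG00000021577.13, GRCm38 chromosome 13, 74322254 to 74350280, minus strand), the catalytic flavoprotein, was lowest at 192, 160.2, 191 and 179 CPM per kb. The libraries of each of these genes overlapped with those of the others, except that Sdha lay below all libraries of Sdhb. The highest mean was 1.24-fold above the lowest, with a range of 1.08-fold to 1.36-fold in single libraries. Sdha was nevertheless below Sdhb in 4 of 4 libraries, with a log2 ratio of −0.29 ± 0.14, and Sdhc was above Sdhd in 4 of 4, with 0.20 ± 0.11. All 4 coding sequences were fully unique, in the sense that none of their 30-nt words occurs in a transcript of another annotated gene. For each of 18 gene pairs compared in this way, a 2-sided exact permutation test by sign flips gave p = 0.13 before and after adjustment over the pairs, the smallest that 4 libraries allow, so no pair could pass 0.05.

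Complex III was less even. Uqcrq, a small subunit bound near cytochrome b, was highest at 685, 751, 901 and 629 CPM per kb, followed by the small subunit gene Uqcr10 at 391, 467, 617 and 365 CPM per kb. The libraries of these genes did not overlap. Uqcrh, the acidic hinge protein, had 370.1 ± 89.6 CPM per kb and Uqcr11 had 338 ± 43.6 CPM per kb. The large core proteins, which face the matrix, were lower, with Uqcrc1 at 249.9 ± 12.8 and Uqcrc2 at 195 ± 9.85 CPM per kb, and Uqcrc1 was above Uqcrc2 in 4 of 4 libraries (log2 ratio 0.36 ± 0.06). The redox subunits were close to these: Uqcrfs1, the Rieske iron-sulfur protein, had 183 ± 17.5 CPM per kb and Cyc1, cytochrome c1, had 153 ± 13.4 CPM per kb. Uqcrb was lowest at 92.9, 82.0, 148 and 116 CPM per kb, and only 9.45% of its 30-nt words were unique. Uqcrq, Uqcrc1, Uqcrc2, Uqcrfs1 and Cyc1 were at least 90% unique, and over these the highest mean was 4.84-fold above the lowest.

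Cycs, which encodes the carrier cytochrome c, had 68.0, 91.1, 144 and 89.0 CPM per kb. It was below Cyc1 in 4 of 4 libraries, with a log2 ratio of −0.69 ± 0.37. None of the Cycs words was unique, and an annotated protein-coding copy, Gm10053, held all of them and was listed at 0. The reads of Cycs and its copies therefore cannot be told apart, and its level is uncertain.

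The common forms of complex IV held the highest members. Cox6a1 (ENSMUSG00000041697.8, chromosome 5, 115345642 to 115348981, minus strand) had 923, 1257, 1394 and 886 CPM per kb, which places its mean at the 99.6th percentile of tested genes. Cox8a followed at 845, 885, 1375 and 896 CPM per kb, and the 2 genes overlapped. Cox6b1 had 889.6 ± 157 CPM per kb and Cox4i1, which has the longest coding sequence of these genes, had 807 ± 78.1 CPM per kb. Cox7b had 753 ± 171, Cox7a2 637 ± 115, Cox5b 492 ± 61.7, Cox6c 392 ± 75.9 and Cox5a 366 ± 47.5 CPM per kb. This order depended on the length used, as 66.5% of the Cox6a1 words and 24.9% of the Cox5b words were unique. With coding length scaled to its unique share, Cox5b lay 6.95 above the typical gene on the log2 scale and Cox6a1 6.70. Cox5a was below Cox5b in 4 of 4 libraries (log2 ratio −0.43 ± 0.16). Cox7c was lowest at 241, 362, 415 and 279 CPM per kb, and none of its words was unique, since the processed pseudogene Gm12338 held all of them.

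The muscle forms of complex IV were present, and their values varied between the libraries, although only Cox6a2 passed the variance test given below. Cox6a2 (ENSMUSG00000030785.8, chromosome 7, 128205435 to 128206387, minus strand), the heart and muscle form of subunit 6A, had 46.9, 27.6, 56.7 and 14.4 CPM in replicates 1 to 4. Cox8b, the muscle form of subunit 8, had 31.8, 9.29, 25.9 and 13.4 CPM, and Cox7a1, the muscle form of subunit 7A, had 23.2, 11.5, 19.3 and 11.9 CPM. All 3 were higher in replicates 1 and 3 than in replicates 2 and 4. Cox7a1 and Cox8b are also abundant in brown fat. Their common partners did not share this order: Cox6a1 had 313, 426, 472 and 300.2 CPM, Cox7a2 had 123, 169.7, 192 and 157 CPM, and Cox8a had 177, 186, 289 and 188 CPM.

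Each muscle form stayed below its common partner in 4 of 4 libraries. By density, Cox6a1 exceeded Cox6a2 by 5.78-fold, 13.4-fold, 7.23-fold and 18.1-fold in replicates 1 to 4 (log2 ratio 3.31 ± 0.76). Cox7a2 exceeded Cox7a1 by 5.68-fold, 15.9-fold, 10.7-fold and 14.2-fold (log2 ratio 3.41 ± 0.66), and Cox8a exceeded Cox8b by 5.67-fold, 20.3-fold, 11.3-fold and 14.2-fold (log2 ratio 3.53 ± 0.77). Put as a share of the pair, the muscle forms made up 14.7%, 15.0% and 15.0% in replicate 1, and 5.24%, 6.59% and 6.57% in replicate 4. In replicate 2 they made up 6.94%, 5.92% and 4.70%, and in replicate 3 12.1%, 8.55% and 8.13%. The 3 pairs thus had nearly the same share in replicate 1, and differed more in the other libraries.

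In a test of each gene's variance between libraries against that of genes of the same level, fitted over 15728 genes, Cox6a2 was the only member called (SD of log2(CPM + 1) 0.85, against 0.17 usual at its level; F test with limma's prior variance, adjusted p = 0.0196). Among all genes tested 1.54% were called. Cox8b came next with an SD of 0.78 and an adjusted p of 0.0552 in the same limma-based test, and Cox7a1 had an SD of 0.48 and an adjusted p of 0.457. The Cox6a2 call was lost without replicate 3 (adjusted p = 0.12) and without replicate 4 (adjusted p = 0.222), each in the same limma-based test, and Cox8b was called without replicate 4 (adjusted p = 0.0412).

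Summed markers of other tissues differed between the libraries as well. All 12 fast skeletal muscle markers were detected, with sums of 7498, 1868, 3959 and 2387 CPM, led by Acta1 (835 ± 519 CPM), Atp2a1 (669.9 ± 456 CPM) and Myh4 (584 ± 466 CPM). All 7 slow and cardiac muscle markers were detected, with sums of 266, 189, 294 and 116 CPM, led by Mb, myoglobin (138, 76.8, 143 and 46.5 CPM). Cox8b and Cox7a1 had the library order of the fast list, with replicate 1 highest and replicate 2 lowest, and Cox6a2 had that of the slow list and of Mb, with replicate 3 highest and replicate 4 lowest. The 5 brown adipocyte markers summed to 101, 39.0, 91.8 and 68.9 CPM, in the order of the fast list, with Ucp1, the uncoupling protein of brown fat, at 46.8, 10.5, 54.7 and 38.9 CPM while Elovl3 was at 0 in replicates 2 and 4. Ucp1 and Cidea (21.2 ± 11.4 CPM) made up most of that sum. Ucp1 was highest in replicate 3, Dio2 was highest in replicate 4 at 8.06 CPM against 3.32 to 3.49 CPM elsewhere, and Otop1 had 11.6 ± 2.14 CPM and was lowest in replicate 4. The 6 adipocyte markers summed to 367, 166, 357 and 194 CPM, with Lep under 1 CPM in replicates 2 and 4. This sum also had the library order of the fast list, and so of Cox8b and Cox7a1, although Fabp4 and Cidec were highest in replicate 3. Of the cardiac markers Myh6 was detected at 5.28 to 10.8 CPM, while Nppa had a single read, in replicate 1, and Tnni3 had 1.14 ± 0.325 CPM, under 1 CPM in replicates 3 and 4. The part of these tissues in the muscle-form values was not tested. In such bulk libraries more of a tissue and more footprints per cell of that tissue cannot be told apart.

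**Figure D2:**
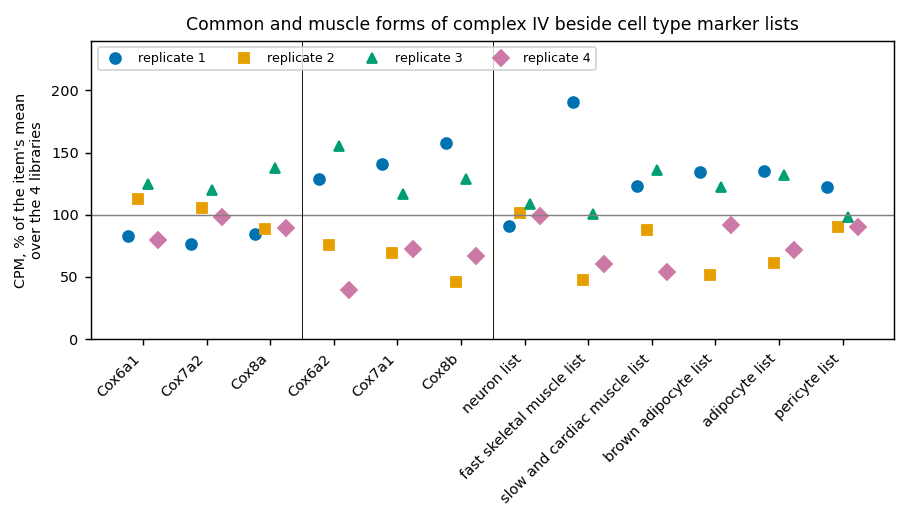
CPM in each library as a percentage of the item's own mean over the 4 libraries, for the common forms Cox6a1, Cox7a2 and Cox8a, the muscle forms Cox6a2, Cox7a1 and Cox8b, and the summed marker lists. The muscle forms lie at 117% to 158% in replicates 1 and 3 and at 39.5% to 75.7% in replicates 2 and 4, and the neuron list stays between 90.7% and 109%.

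The coding sequences of Cox8a and Cox8b are shown because they let footprints of the common and the muscle form be assigned to their own gene. They are GENCODE sequences of GRCm38, both from genes on the minus strand (Cox8a, chromosome 19, 7215153 to 7217616; Cox8b, chromosome 7, 140898945 to 140900446), written 5′ to 3′ with capitals where the aligned sequences differ.
Cox8a: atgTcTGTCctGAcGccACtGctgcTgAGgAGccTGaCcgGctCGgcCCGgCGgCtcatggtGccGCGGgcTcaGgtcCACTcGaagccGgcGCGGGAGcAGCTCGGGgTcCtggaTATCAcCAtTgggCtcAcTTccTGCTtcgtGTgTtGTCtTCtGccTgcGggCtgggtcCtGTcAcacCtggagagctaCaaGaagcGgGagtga
Cox8b: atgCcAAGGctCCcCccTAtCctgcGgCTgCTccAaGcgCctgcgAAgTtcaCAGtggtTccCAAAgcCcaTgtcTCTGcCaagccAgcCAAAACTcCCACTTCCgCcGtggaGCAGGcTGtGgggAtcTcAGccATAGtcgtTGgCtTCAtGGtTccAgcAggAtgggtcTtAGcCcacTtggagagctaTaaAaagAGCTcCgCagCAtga
Of 204 aligned bases 115 were identical (56.4%), and the longest stretch in common was 10 nt, shorter than the footprints of 28 to 34 nt that were isolated. The longest shared stretch was 12 nt for Cox6a1 and Cox6a2 and 12 nt for Cox7a2 and Cox7a1, and all 3 muscle forms were 100% unique.

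The forms of other tissues were near or under the typical gene. Cox4i2, a form known from lung and from pericytes, had 2.62, 2.59, 3.08 and 2.88 CPM, and its density lay −1.22 from the typical gene (limma adjusted p = 7.3e-08). The common gene Cox4i1 had 381, 397, 470.1 and 397 CPM and was 150.0-fold denser. The pericyte markers summed to 227 to 309 CPM, led by Pdgfrb (149 ± 14.3 CPM), Rgs5 (49.1 ± 8.03 CPM) and Notch3 (31.6 ± 10.4 CPM). By density, 2 of the 5 lay above the typical gene in the limma test, and Notch3, Abcc9 and Kcnj8 lay below it. Cox6b2, a testis form, had 3.84, 1.62, 5.40 and 3.07 CPM, and its density lay −0.40 from the typical gene, or −0.62 without replicate 3, where it was called (limma adjusted p = 0.167 and 0.0231). Its common partner Cox6b1 had 208, 235, 289 and 197 CPM, an 80.5-fold higher density. Cox7b2, another testis form, had 0.174, 0.108, 0.273 and 0.480 CPM, 11 reads in all, and Cox7b had 164, 183, 241 and 144 CPM, a density 714-fold higher from summed reads (exact 95% interval 399 to 1431, counting error only). The testis form Cox8c was at 0 throughout, and a count of 0, taken to allow 3 reads, permits a level of at most 0.523 CPM in the shallowest library and 0.205 CPM in the deepest. Against 3 reads over the group, Cox8a was at least 3102-fold denser. The testis markers Prm1, Prm2, Tnp1 and Odf1 were at 0, and Tnp2 had a single read, in replicate 1. Cox7a2l, a relative of subunit 7A that joins complexes III and IV into supercomplexes, had 10.99, 17.1, 20.6 and 12.4 CPM, and Cox7a2 was 16.9-fold denser. The processed pseudogene Gm6969 held 62.5% of the Cox7a2l words and had 3.98 CPM itself.

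In complex V the densest genes were Atp5g3 and Atp5b. Atp5g3 (ENSMUSG00000018770.9, chromosome 2, 73908447 to 73911326, minus strand), which encodes the rotating ring subunit c, had 890, 760, 1099 and 898 CPM per kb. Atp5b (ENSMUSG00000025393.12, chromosome 10, 128083273 to 128090391, plus strand), the catalytic F1 beta subunit, had 827, 751, 815 and 835 CPM per kb, and the libraries of both genes overlapped. Atp5a1, the F1 alpha subunit, had 684, 626, 676 and 679 CPM per kb and was below Atp5b in 4 of 4 libraries by a log2 ratio of −0.28 ± 0.02, which had the smallest SD of the 18 pairs. Both assemble in equal number. The other F1 subunits were Atp5d (delta) at 620.3 ± 55.5, Atp5e (epsilon) at 539.8 ± 123 and Atp5c1, the gamma shaft, at 193 ± 13.4 CPM per kb. In the membrane part, Atp5k (subunit e) had 669 ± 123 and Atp5j2 (subunit f) had 643 ± 77.0 CPM per kb, while Atp5l (subunit g) had 119 ± 20.1 CPM per kb with no unique word. The stalk that holds F1 in place comprises Atp5j (F6) at 331 ± 44.8, Atp5o (OSCP) at 316 ± 46.3, Atp5h (d) at 179.9 ± 38.3 and Atp5f1 (b) at 179.5 ± 13.7 CPM per kb. Of their words 80.5%, 36.5%, 19.9% and 37.9% were unique, in this order. On the log2 scale they lay 4.48, 4.41, 3.59 and 3.60 above the typical gene. With coding length scaled to its unique share they lay 4.69, 5.76, 5.81 and 4.90 above it, so the low stalk values are uncertain. Atp5o was the only member whose value differed from a whole number of reads by over 0.05 in all 4 libraries, and a second annotated gene of the same name, not in the table, holds 34.9% of its words.

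Subunit c is made from 3 genes whose mature proteins are identical and whose import signals differ. Atp5g3 carried 75.4% of the summed density, Atp5g1 19.8% and Atp5g2 4.77%. Atp5g1 had 229, 266, 273 and 190.4 CPM per kb and Atp5g2, the lowest member of complex V, had 61.3, 67.6, 59.8 and 41.8 CPM per kb. Atp5g3 was above Atp5g1 in 4 of 4 libraries (log2 ratio 1.93 ± 0.30), and Atp5g1 above Atp5g2 (2.04 ± 0.14). The libraries of the 3 genes did not overlap.

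The ends of their coding sequences, the last 228 nt with the stop codon, are shown because the same protein is written there in different codons (GENCODE, GRCm38, minus strand of chromosomes 11, 15 and 2 in the order given, 5′ to 3′, capitals where any of the 3 differ).
Atp5g1: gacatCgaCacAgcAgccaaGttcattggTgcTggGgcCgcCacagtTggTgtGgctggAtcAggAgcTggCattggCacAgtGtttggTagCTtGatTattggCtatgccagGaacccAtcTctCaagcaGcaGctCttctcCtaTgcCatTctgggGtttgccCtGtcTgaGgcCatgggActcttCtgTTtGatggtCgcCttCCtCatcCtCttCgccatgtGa
Atp5g2: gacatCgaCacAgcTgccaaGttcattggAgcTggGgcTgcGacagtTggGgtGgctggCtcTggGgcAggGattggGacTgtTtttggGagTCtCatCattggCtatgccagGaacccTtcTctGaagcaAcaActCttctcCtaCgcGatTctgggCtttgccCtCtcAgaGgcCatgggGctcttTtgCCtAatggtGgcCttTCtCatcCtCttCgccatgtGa
Atp5g3: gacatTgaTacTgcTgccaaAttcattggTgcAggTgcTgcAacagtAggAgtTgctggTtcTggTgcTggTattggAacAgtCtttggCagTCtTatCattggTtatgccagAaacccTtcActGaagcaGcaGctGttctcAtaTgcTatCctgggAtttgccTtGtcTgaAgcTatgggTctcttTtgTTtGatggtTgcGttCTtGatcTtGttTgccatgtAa
Of the 75 codons before the stop, 52 differed between the genes, and all 52 differences were synonymous. The longest stretch shared by any 2 of them was 21 nt, shorter than a footprint, so the genes can be told apart from each other. They cannot all be told apart from their pseudogenes: Atp5g3 was 100% unique, but no word of Atp5g1 or Atp5g2 was. The processed pseudogene Gm10039 held 92.9% of the Atp5g1 words and had 17.1, 23.6, 12.2 and 6.24 CPM, and Gm10175 and Gm10231 each held all Atp5g2 words and were listed at 0. With the Gm10039 reads added to Atp5g1, its log2 ratio over Atp5g2 was 2.24, and that of Atp5g3 over Atp5g1 was 1.73.

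Densities were also set against the number of copies of each subunit in 1 complex, taken as 3 for Atp5a1 and Atp5b, 8 for the ring subunit c and 1 for all other core subunits. Per copy, Atp5b had 269 ± 12.7, Atp5a1 222 ± 9.06, Atp5c1 193 ± 13.4 and the summed ring genes 151 ± 19.0 CPM per kb. Without the division by copies Atp5b was 4.19-fold above Atp5c1. Atp5d and Atp5e were above these at 620.3 ± 55.5 and 539.8 ± 123 CPM per kb, each with 1 copy and a fully unique coding sequence. Over all items of complex V the range was 5.62-fold, from Atp5l to Atp5k, against 3.44-fold in complex IV, 6.75-fold in complex III and 1.24-fold in complex II. Over genes at least 90% unique it was 2.79-fold for 4 genes of complex V and 1.24-fold for 3 genes of complex IV. It was 4.84-fold for 5 genes of complex III and again 1.24-fold in complex II. The ring genes were left out of this complex V range, because their sum has no unique share, although Atp5g3 was 100% unique. At 151 CPM per kb per copy that sum lay below all 4 genes, so the range given is the narrower one. The genes at the low end of complexes IV and V, Cox7c and Atp5l, had no unique word.

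**Figure D3:**
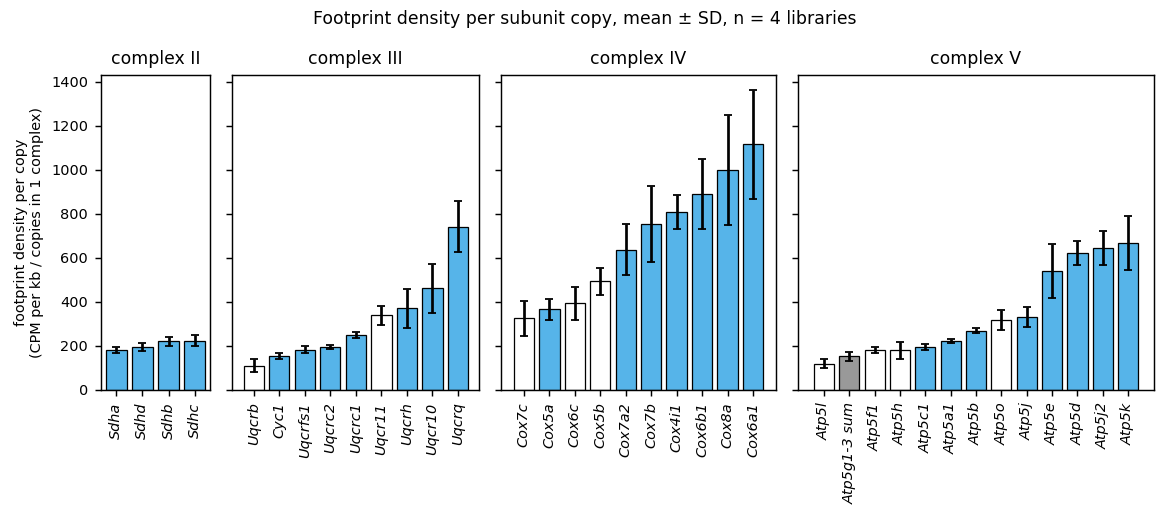
Footprint density per copy of each core subunit, in CPM per kb divided by the copies in 1 complex, as mean ± SD over 4 libraries. Blue bars are genes at least 50% unique, white bars genes under 50% unique and the grey bar the sum of Atp5g1, Atp5g2 and Atp5g3, and complex II is level at 180.5 to 224 CPM per kb while complexes III to V rise in steps.

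The 11 core subunits under 50% unique had a median of 239.6 CPM per kb and reached 492 CPM per kb at most, against medians of 549 for the 10 genes at 50% to under 90% and 539.8 for the 17 genes at 90% or more. Spearman's rho between unique share and density was 0.27 over the 38 core subunits, and that between coding length and density was −0.38, against −0.32 over all 14113 tested genes. These are descriptions over genes of the same 4 libraries. Across 12 members, 21 other annotated genes each held at least 50% of a member's words, and 19 of them had a mean under 1 CPM, so that few reads were credited to the copies. How reads that match several places were counted is not given in the sources used here, and the part of such reads in the low values was not tested.

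The mitochondrially encoded partners also differed in uniqueness and in level. The complex III gene mt-Cytb, 92.6% unique, had 909.7, 1409, 2118 and 1132 CPM per kb, and mt-Atp8, a complex V gene that was 92.0% unique, had 1505, 3035, 4467 and 2171 CPM per kb. The complex IV catalytic subunit gene mt-Co1, 35.2% unique, had 475, 534, 864 and 574 CPM per kb. Because mitochondrially encoded subunits are made on other ribosomes, their densities were not compared with those of nuclear subunits. The genes mt-Co3, mt-Atp6 and mt-Co2, which were 0.133%, 0.460% and 0% unique, had 20.1 ± 16.5, 4.91 ± 3.26 and 0.352 ± 0.107 CPM per kb. With so few unique words, the levels of mt-Co2, mt-Co3 and mt-Atp6 are uncertain, and that of mt-Co1 shares this limit in part. Replicate 3 was highest for mt-Cytb, mt-Co1 and mt-Atp8 and replicate 1 lowest.

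Some subunits and regulators have symbols outside the naming rule. Ndufa4, now counted as a complex IV subunit, had 1372 ± 187 CPM per kb, above the mean of every member, and its libraries ran from 1201 to 1636. Atpif1, the inhibitor of ATP hydrolysis by complex V, had 449, 653, 826 and 552 CPM per kb. The small ATP synthase proteins 2010107E04Rik and Usmg5 had 597 ± 114 and 211 ± 59.7 CPM per kb, the latter 0.676% unique. Cyct, the testis cytochrome c, had a read in replicate 3 alone. Atp5s, or factor B, had 15.5 ± 1.68 CPM per kb and was close to the typical gene (log2 difference 0.14, limma adjusted p = 0.095). Its call depended on the setting: it was above the typical gene without replicate 1 (0.20, limma adjusted p = 0.0394), with trimmed coding length (0.22, limma adjusted p = 0.02) and without the low-value filter (0.89, limma adjusted p = 8.3e-07), and below it without length correction (−1.004, limma adjusted p = 6.5e-09). Atp5sl, which shares the Atp5 symbol but is annotated as Dmac2 and is not an ATP synthase subunit, had 25.7 ± 1.75 CPM per kb.

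Assembly factors, which build the complexes without staying in them, had a lower median than the core subunits, although Cox14 lay above all genes of complex II. Of 36 factors for complexes II to V, 35 were tested, and 24 had a density above the typical gene and 7 one below it in the limma test, against 46.1% and 46.2% of all genes tested, and their median was 32.3 CPM per kb, 1.16 ± 0.05 above the typical gene on the log2 scale. The factors for complex II with the most reads were Sdhaf2 and Sdhaf4 at 71.7 ± 4.54 and 43.3 ± 7.60 CPM per kb. Sdhaf1 was not detected, but it had no unique word, so its level is uncertain. For complex III they were Uqcc2 at 126 ± 22.2, Uqcc1 at 51.1 ± 4.52 and Ttc19 at 34.4 ± 2.16 CPM per kb. For complex IV they were Lrpprc, which stabilises mitochondrial mRNAs, at 32.0 ± 2.36, Cox14 at 273 ± 31.7 and Coa3 at 142 ± 23.0 CPM per kb. The complex V factors Tmem70, Atpaf2 and Atpaf1 had 34.5 ± 4.99, 13.7 ± 0.930 and 8.65 ± 1.47 CPM per kb.

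The core subunits differed between libraries in a common direction. Replicate 3 was the highest library for 30 of the 38 core subunits (78.9%), against 37.5% of all tested genes, and it lay above the mean of the other 3 libraries for 38 of 38, against 70.1% of the 14096 tested genes with this value. For the genes with complex I symbols these shares were 89.2% and 91.9%. For all tested genes of at most 500 nt they were 61.0% and 84.6%. The median core subunit was 1.24-fold above the other libraries in replicate 3, by a log2 difference of 0.31, against 0.11 for all tested genes. Short coding sequences had the larger differences, with 0.38 for the 24 core subunits of at most 500 nt and 0.20 for the 14 longer ones. The same held for all tested genes, at 0.29 for those of at most 500 nt and 0.10 for longer ones. The largest differences were those of Cox8a (0.65), Uqcrb (0.63), Uqcrh (0.62) and Uqcr10 (0.61), and the smallest were those of Atp5b (0.02) and Atp5a1 (0.03). No core subunit was called in the variance test, where the smallest adjusted p was 0.414, for Cox6a1 (F test with limma's prior variance). The genes with complex I symbols had a median difference of 0.34. Replicate 3 was also the deepest library and the one with mt-Rnr2 at 0, and the part of these features was not tested.

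**Figure D4:**
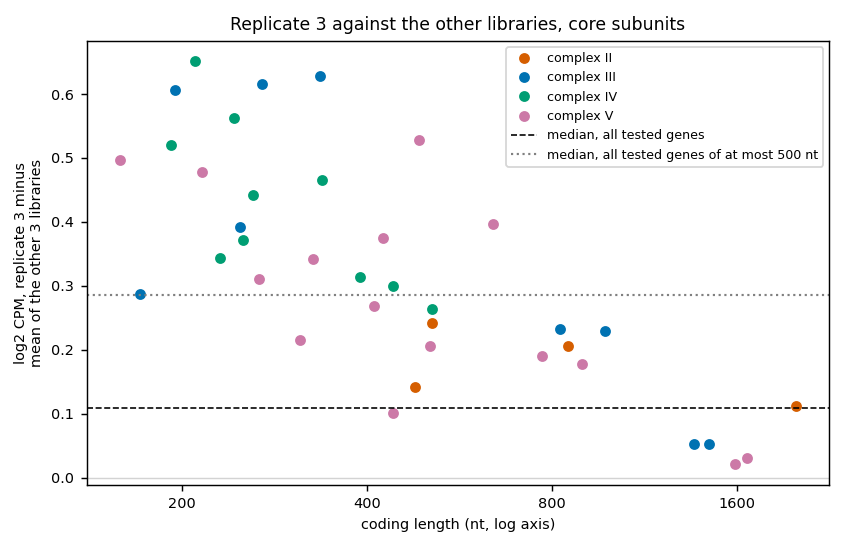
Log2 CPM of each core subunit in replicate 3 minus its mean in the other 3 libraries, against coding length in nt (log axis), coloured by complex, with the medians of all tested genes (0.11, dashed) and of tested genes of at most 500 nt (0.29, dotted). All 38 points lie above 0, and short genes lie higher than the long genes Atp5b, Atp5a1, Uqcrc1 and Uqcrc2.

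Promoters of the members were searched for letters known from respiratory genes, in RefSeq windows of GRCm38.p6 that run from 250 bases before to 50 bases after an annotated start, on both strands. A window was found for 38 of the 49 members, 30 of them core subunits. The NRF-1 motif core GCNTGCGC occurred in 14 of 30 core subunits (46.7%) and in 11.2% of 27025 genes with a window, and the ETS and GABP motif CCGGAAG in 12 of 30 (40.0%) and in 9.93%. The full NRF-1 palindrome, GCGC on either side of AT, which contains that core, occurred in 4 of 30 (Atp5g2, Atp5k, Cox6a1 and Uqcrc1) and in 1.07%. The ERR motif TCAAGGTCA occurred in Atp5g3 and Sdhd, and in 0.466% of all genes. The YY1 motif AAGATGGC occurred in 3 of 30 and in 3.19%. CANNTG, the E-box of muscle regulators among others, occurred in 21 of 30 and in 74.99%, and the MEF2 motif in none of the members with a window and in 3.70% of all genes. Neither Cox7a1 nor Cox8b held any of these motifs but the E-box, and Cox6a2 had no window.

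The 250 bases before the start are shown for Cox6a1, the densest member over the full coding length (chr5:115348959-115349208, minus strand), with the NRF-1 palindrome and CCGGAAG in capitals, and for the muscle form Cox8b (chr7:140900447-140900696, minus strand), with CANNTG in capitals.
Cox6a1: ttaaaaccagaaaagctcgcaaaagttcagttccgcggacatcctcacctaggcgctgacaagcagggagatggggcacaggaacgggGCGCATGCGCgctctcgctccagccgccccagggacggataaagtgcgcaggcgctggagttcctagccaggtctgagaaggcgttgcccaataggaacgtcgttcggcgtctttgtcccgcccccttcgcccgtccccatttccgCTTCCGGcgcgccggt
Cox8b: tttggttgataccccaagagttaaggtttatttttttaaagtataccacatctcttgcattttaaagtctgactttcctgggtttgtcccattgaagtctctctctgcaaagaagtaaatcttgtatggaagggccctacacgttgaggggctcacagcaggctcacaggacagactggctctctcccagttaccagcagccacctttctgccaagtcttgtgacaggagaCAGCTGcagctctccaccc
In Cox6a1 the second stretch in capitals is CCGGAAG read on the other strand. A match is a description of these letters and was not tested as a binding site.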

How the data were processed

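Ribosome footprints of 28 to 34 nt from mouse dorsal root ganglia were sequenced in 4 libraries of 1 group. Per the submitters' processing notes, the tools were Cufflinks 2.2.1, Bowtie2 2.2.9, TopHat2 2.1.1 and FastQC 0.11.5 and the builds GRCm38.p4 and mm10, without stated roles. The counting rule and the annotation release were not stated. The table that the authors deposited is named TPM, but each column sums to 1000000 and 96.5% to 96.8% of the values above 0 lie within 0.05 of a whole number of steps, with the same step whatever a gene's length, so the deposited values were used as CPM without length correction. The step, the value of 1 read, gave depths of 5731508, 9255060, 14633418 and 10424948 reads; floors of 3 reads and intervals cover counting error only.

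Of the 48431 identifiers, 48052 were found in GENCODE M21 on GRCm38. Uniqueness is the share of a gene's 30-nt coding words that other annotated genes' transcripts lack on both strands; copies outside annotated transcripts were not searched. Levels were tested as log2(CPM per kb + 1) minus the library median with limma 3.58.1 (trended, robust), over protein-coding genes whose mean reached 1 CPM or more. Variance was tested with a 1-sided F test against limma's trended prior, and ratios of 18 pairs with exact sign-flip permutation tests. Adjustment was by Benjamini-Hochberg, with a threshold of 0.05. The level and variance tests were run on simulated counts in which few genes were changed. For levels that setting is unlike these data, where most genes were called above or below the typical gene, and the outcome is not given here. R 4.3.3, Python 3.11.15 and Biopython 1.88 were used.

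The lists of markers and factors, the pairs and the members were chosen with earlier results of these data known. All members are named; values in every library are given for the 2 densest members and the least dense of each complex, pairs with tissue forms, and members called variable, and others are given as means. Outside the members, mitochondrially encoded subunits, the inhibitor and up to 3 genes of each list are named. Further list genes are named where they were low or differed in library order. Members named beyond this, for library differences and for motifs, were chosen after their values were seen. Alternatives were leaving out each replicate, quantile normalisation, a pseudocount of 0.1, no low-value filter, library totals taken without the 20 highest genes and those of mitochondrial DNA, no length correction, coding length less 15 start and 5 end codons, and unique coding length.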

Additional observations from a re-analysis of the deposited data

Results flagged for a closer look

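In 3 of 48 members with reads, 1 library lay far from the other 3, by Dixon's criterion for 4 values, which chance alone meets in about 1 group in 20. Cox8a stood at 289 CPM in replicate 3 against 177 to 188 CPM elsewhere, and Atp5o at 248 CPM in replicate 3 against 188 to 189.6 CPM elsewhere. Atp5a1 stood at 1040.1 CPM in replicate 2 against 1107 ± 45.2 CPM over all 4 libraries.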

How the results depend on the processing

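Of 847 values recomputed under alternatives, 805 were labelled unchanged, by a criterion that differed between kinds of value. Single genes had to keep their side of the threshold and, where called, their direction. Pair ratios had to keep their direction alone, and group medians to stay within the SD over libraries. Counts had to stay within a set fold of the main count, so that 39 members against 44 was labelled unchanged. Without length correction the log2 difference from the typical gene turned for Atp5s (−1.004), Cox7a1 (−0.30), Cox7a2l (−0.38) and Cox8b (−0.12), and the log2 ratio of Sdha over Sdhb turned to 0.94. Members above the typical gene numbered 44, or 39 without length correction and 38 with unique coding length, which leaves out members under 10% unique. Members below the typical gene numbered 1 in the report, 4 without length correction and 2 without the low-value filter, and 1 to 2 when a replicate was left out, with 2 without replicate 3. Genes with excess variance numbered 242, or 757 without the filter, and 106 to 205 when a replicate was left out, 148 without replicate 2 and 106 without replicate 3. Of the members, 1 was called variable, 2 after rescaling, 3 without the filter, and 0 to 1 when a replicate was left out, with 0 without replicate 3.

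Medians against the typical gene, on the log2 scale, moved as follows. Without length correction they were 2.83 for complex II, 2.85 for complex III, 3.18 for common forms of complex IV, 2.85 for complex V and 2.97 for all core subunits. With trimmed coding length they were 3.88 for complex II, 5.78 for complex IV, 4.70 for complex V and 4.89 for all core subunits. With members at least 50% unique they were 5.78 for complex IV, 5.40 for complex V and 5.19 for all core subunits. With a pseudocount of 0.1 they were 3.89 for complex II and 4.16 for complex III, and with means over members 4.15 for complex III. These alternatives for group medians, apart from means and unique members, and the addition of Gm10039 reads were chosen after seeing the data. The cause was not tested. For 4 pair ratios the unique coding length gave no value, because a gene was under 10% unique. No paired analysis was possible because there is 1 group. Depth limits values of a few reads, such as those of Cox7b2.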
